A study of Mus musculus with 4 samples.

Results

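Glycolysis and hypoxia response genes were examined in NKT cells of the small intestinal lamina propria (SI-LP), as a set of 32 genes chosen by name from the 25239 genes of the count table: glycolytic enzymes, glucose and lactate carriers, regulators of glycolytic flux, and genes of the hypoxia-inducible factor (HIF) pathway. All 32 were found by their symbols, and 31 passed the filter on low counts (10 or more counts in at least 2 libraries), as did 11689 genes in all. NKT cells are T cells whose receptors bind lipids held by CD1d. The 4 bulk RNA-seq libraries all came from WT C57BL/6Jax mice aged 7 to 10 weeks, of both sexes according to the methods, without a group of another genotype or treatment among them. The labels place replicates 3 and 4 in a first and replicates 1 and 2 in a second experiment. The cells were sorted as live TCRβ+ cells that bound CD1d tetramers loaded with the lipid PBS57 and lacked B220, CD11b, CD11c and CD8. The mice had received a nanobody against ARTC2, an ectoenzyme whose blockade protects T cells during isolation, before the tissue was taken. NKT cells of lymphoid tissues are not analysed here, so the values describe levels within SI-LP NKT cell libraries and their spread, and not a difference from other NKT cells.

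Glycolysis converts glucose to pyruvate in the cytosol, and lactate dehydrogenase can turn that pyruvate into lactate, which leaves the cell through monocarboxylate transporters. Activated T cells rely on this route for energy and building blocks. When oxygen is present, prolyl hydroxylases mark the HIF1α protein for destruction; when it is scarce, HIF1α accumulates and binds DNA at short sites with an ACGTG or GCGTG core in many of the genes examined here. That control acts on the protein, so the mRNA of *Hif1a* does not report HIF activity by itself.

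The libraries held 7233071, 8732858, 5487147 and 3882803 counts in replicates 1 to 4, so that 3 counts, the smallest level taken as detected, corresponded to 0.287 to 0.753 CPM (counts relative to the library size as adjusted by TMM). The precursor of ribosomal RNA, *Rn45s*, took 7.36% to 28.1% of the counts. All 8 T cell markers and all 6 NKT1 markers exceeded 3 counts in every library, and they summed to 0.146% to 0.434% and to 0.0866% to 0.372% of the counts. The libraries also carried RNA of other cells, unevenly. Epithelial markers (21 genes, 17 of them above 3 counts in all 4 libraries and none at 0 throughout) summed to 0.0972%, 1.24%, 0.0188% and 3.07% in replicates 1 to 4, and plasma cell markers (6 genes, none at 0 throughout) to 0.655%, 0.839%, 0.0114% and 0.0387%. Thus replicates 2 and 4 stood apart by epithelial RNA, 1 in each experiment, and the second experiment stood apart by plasma cell RNA. Most of the epithelial sum of replicate 4 came from *Lyz1*, which had 2171, 3534, 47 and 84299 counts in replicates 1 to 4. The order of replicates 2 and 4 by epithelial markers rested on this gene. Markers of B cells, myeloid cells, stromal or endothelial cells, mast cells and erythroid cells each summed to at most 0.0134% in any library, with *S100a8*, *S100a9*, *Kdr*, *Mcpt1*, *Mcpt2*, *Fcer1a* and 4 globin genes among those at 0 in all 4. In bulk libraries, fewer cells of a type and less RNA per cell cannot be told apart. Nothing states that each library came from a different mouse, so p-values measure only the spread between these samples, which may be technical.

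Promoter windows of 6 genes described below are shown first, so that the presence or absence of the HIF core can be read in them. Each window runs from 250 bases before to 50 after a RefSeq start (GRCm38.p6), is written 5′ to 3′ on the strand of the gene, and has every ACGTG or GCGTG core in capitals, on either strand, so that a core on the opposite strand appears as CACGT or CACGC. *Ldha* (chr7:46845554-46845853, plus strand) is the most abundant of the 32 genes. *Bnip3* (chr7:138909457-138909756, minus strand), *Pfkfb4* (chr9:108991652-108991951, plus strand) and *Vegfa* (chr17:46032328-46032627, minus strand) were higher in the libraries with more epithelial RNA, and *Hk1* (chr10:62340372-62340671, minus strand) and *Ldhb* (chr6:142507908-142508207, minus strand) were lower there with TMM scaling, though by less than 1 log2 unit when scaled to T cell markers.
Ldha: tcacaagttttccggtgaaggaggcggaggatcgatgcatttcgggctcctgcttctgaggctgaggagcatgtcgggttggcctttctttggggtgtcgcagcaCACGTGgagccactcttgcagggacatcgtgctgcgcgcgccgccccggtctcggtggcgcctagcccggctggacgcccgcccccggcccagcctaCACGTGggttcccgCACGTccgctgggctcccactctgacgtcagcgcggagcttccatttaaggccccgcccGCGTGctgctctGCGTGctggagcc
Bnip3: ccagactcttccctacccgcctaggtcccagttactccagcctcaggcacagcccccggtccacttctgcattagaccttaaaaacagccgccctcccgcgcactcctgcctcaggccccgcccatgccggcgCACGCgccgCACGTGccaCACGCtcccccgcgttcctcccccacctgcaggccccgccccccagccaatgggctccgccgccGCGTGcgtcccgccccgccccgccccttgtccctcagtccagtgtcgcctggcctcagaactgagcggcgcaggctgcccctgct
Pfkfb4: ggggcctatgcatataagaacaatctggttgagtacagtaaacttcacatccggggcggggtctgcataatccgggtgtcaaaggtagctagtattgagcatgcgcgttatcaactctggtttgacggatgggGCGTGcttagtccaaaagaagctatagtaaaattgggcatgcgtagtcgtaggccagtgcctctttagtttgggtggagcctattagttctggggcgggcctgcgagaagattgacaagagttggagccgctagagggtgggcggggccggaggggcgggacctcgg
Vegfa: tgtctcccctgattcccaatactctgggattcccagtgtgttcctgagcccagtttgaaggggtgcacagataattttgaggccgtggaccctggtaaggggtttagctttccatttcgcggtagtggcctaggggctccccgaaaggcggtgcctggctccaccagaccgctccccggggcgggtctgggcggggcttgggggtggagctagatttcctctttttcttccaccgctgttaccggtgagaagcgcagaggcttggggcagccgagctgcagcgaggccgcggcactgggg
Hk1: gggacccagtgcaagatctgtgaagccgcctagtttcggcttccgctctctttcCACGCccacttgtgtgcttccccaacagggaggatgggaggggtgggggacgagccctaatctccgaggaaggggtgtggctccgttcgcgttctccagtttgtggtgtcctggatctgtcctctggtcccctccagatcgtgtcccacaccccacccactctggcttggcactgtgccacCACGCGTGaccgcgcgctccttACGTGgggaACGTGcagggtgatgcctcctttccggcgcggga
Ldhb: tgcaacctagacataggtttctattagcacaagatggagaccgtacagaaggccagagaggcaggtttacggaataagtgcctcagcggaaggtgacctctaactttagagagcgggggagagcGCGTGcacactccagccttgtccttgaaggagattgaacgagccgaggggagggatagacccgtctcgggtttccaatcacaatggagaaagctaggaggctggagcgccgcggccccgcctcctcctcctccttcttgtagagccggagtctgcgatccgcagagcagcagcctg
The *Ldha* window held 7 core matches, including both strands of 2 CACGTG motifs, since each CACGTG contains ACGTG on either strand. *Bnip3* held 5 matches, *Pfkfb4* 1 and *Ldhb* 1. The *Hk1* window shown, at an internal start, held 5, and one at the outermost start (chr10:62379859-62380158) held 0. The *Vegfa* window at the start of the gene held none, although a second *Vegfa* window at an internal start (chr17:46025114-46025413) held 2. Of the 47 windows found for 31 of the 32 genes, 37 (78.7%) had at least 1 core, against 43.8% of all 32851 windows and 61.0% of the 11818 windows of genes that passed the filter. The CACGTG motif alone was in 12.8% of the 47 windows, compared with 7.15% and 9.81%. A match is a description of these letters and not evidence of binding.

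Together the 32 genes took 0.286% (95% Wilson interval 0.282% to 0.290%), 0.289% (0.286% to 0.293%), 0.274% (0.270% to 0.278%) and 0.236% (0.231% to 0.241%) of the counts in replicates 1 to 4, with a mean of 0.271% ± 0.0244 (SD, n = 4). These intervals cover at most the error of counting and treat each read as independent. PCR copies of a molecule are counted as separate reads, so the intervals are too narrow even for that error. The share was lowest in replicate 4, and 0.280% over replicates 1 and 3 alone, the libraries with less epithelial RNA. With *Rn45s* left out of the counts, the shares were 0.323%, 0.312%, 0.381% and 0.301% in replicates 1 to 4. Replicate 3 was then the highest, so the order of the libraries depended on *Rn45s*. Levels of different genes were compared as TPM, which divides by gene length. By the mean of their TPM percentiles over the 4 libraries, 6 of the 31 genes were at or above the 90th percentile, compared with 7.47% of all genes tested. These were *Ldha*, *Aldoa*, *Eno1*, *Pkm*, *Gpi1* and *Gapdh*, all enzymes of the pathway, and over replicates 1 and 3 alone *Slc2a3* and *Hif1a* joined them (8 genes, against 8.84% of all genes). In all, 20 of the 31 genes lay above the median of the genes tested, and their median percentile was 62.1.

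**Figure D1:**
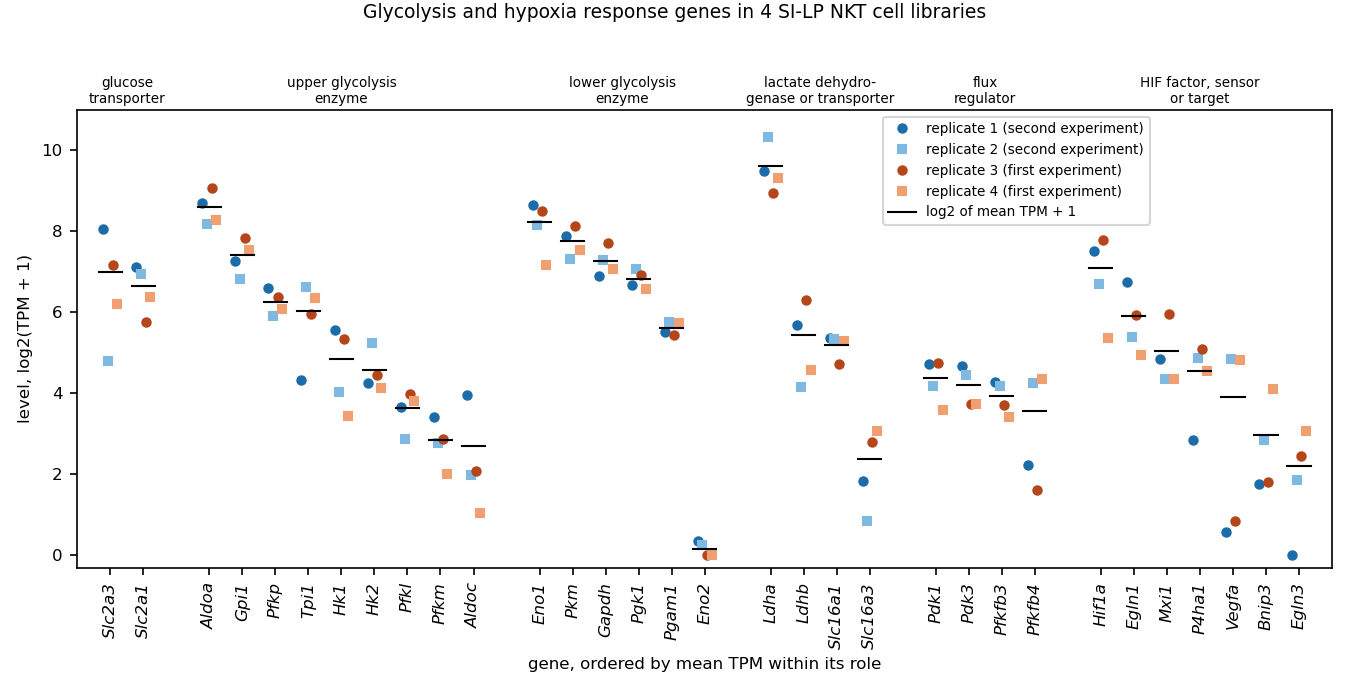
Level of each of the 32 genes in each library as log2(TPM + 1), grouped by role, with replicates 1 and 2 (second experiment) in blue and replicates 3 and 4 (first experiment) in orange; squares are the libraries with more epithelial RNA (replicates 2 and 4) and the black line marks the mean TPM. *Ldha* has the highest mean, *Eno2* lies near 0, and the 4 points of *Vegfa* fall into 2 low circles and 2 high squares.

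Glucose entry was represented by both transporters of the set. *Slc2a3*, which encodes the high-affinity transporter GLUT3, measured 351, 34.7, 229 and 116 CPM in replicates 1 to 4, a mean of 183 ± 138 (SD, n = 4). *Slc2a1*, which encodes GLUT1, measured 118, 102, 55.6 and 85.8 CPM (90.5 ± 26.7). Hence *Slc2a3* spread 10.1-fold between its highest and lowest library and *Slc2a1* 2.12-fold. By TPM the transporters changed order from library to library. *Slc2a1* made up 34.1%, 82.0%, 27.2% and 53.3% of their sum (mean 49.1% ± 24.5). An exact two-sided sign-flip permutation test of their log2(TPM + 1) over the 4 libraries gave p = 1.0. The smallest p that 4 pairs allow is 0.125, so this test could not call a difference, here or for the isoform pairs below. Over replicates 1 and 3 alone the *Slc2a1* share was 30.7%.

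The early enzymes differed in how settled their isoforms were. Of the hexokinases, which trap glucose as glucose 6-phosphate, *Hk1* (chr10:62268855-62379908) measured 69.4, 22.7, 72.1 and 18.1 CPM (45.6 ± 29.2). *Hk2*, the isoform induced in activated T cells, measured 33.0, 66.3, 46.7 and 36.9 CPM (45.7 ± 14.9). *Hk1* was high in replicates 1 and 3 and low in replicates 2 and 4, and its share of the 2 hexokinases by TPM followed, at 72.0%, 29.5%, 65.4% and 37.4% (mean 51.1% ± 20.8, exact permutation p = 0.875). Phosphofructokinase, which commits fructose 6-phosphate to glycolysis, was mostly the platelet isoform: *Pfkp* accounted for 81.9%, 82.9%, 79.3% and 80.7% of the TPM of the 3 isoforms (81.2% ± 1.53) and ranked first in all 4 libraries. The liver isoform *Pfkl* held 12.2% ± 3.34 and the muscle isoform *Pfkm* 6.56% ± 2.18. Of the 4186 exon bases of *Pfkp*, 276 overlap *Pitrm1* on the other strand, and the reads were counted without strand.

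The remaining enzymes of the upper part, which end with triose phosphates, included the second most abundant gene of the set. *Aldoa*, the aldolase of muscle and most other cells, measured 254, 172, 400.2 and 229.6 CPM (264 ± 97.0) and took 98.7% ± 1.38 of the TPM it shared with the brain isoform *Aldoc*. *Aldoc* measured 13.9, 2.78, 3.79 and 1.25 CPM, an 11.04-fold spread. *Gpi1*, which interconverts glucose 6-phosphate and fructose 6-phosphate, measured 147, 106, 268 and 217 CPM (184 ± 72.0). *Aldoa* and *Gpi1* both peaked in replicate 3 and were lowest in replicate 2. *Tpi1*, the triose phosphate isomerase, stood apart in replicate 1, with 9.28 CPM against 46.9, 36.6 and 47.7 CPM in the other libraries.

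Lower glycolysis, in which ATP and pyruvate are made, held the 2 genes with the lowest ratios between libraries. *Pgam1*, the phosphoglycerate mutase, measured 27.4, 31.6, 31.5 and 38.6 CPM (32.3 ± 4.66), and its ratio of 1.41 between the highest and lowest library was the smallest of the 30 genes with more than 3 counts in every library. *Pgk1*, the kinase that makes the first ATP of this segment, measured 61.7 to 88.8 CPM (75.0 ± 11.8). Both genes varied less than the median gene of the set, whose ratio was 2.61 (17 of the 30 ratios changed by more than 1.5-fold when 1 library was left out), while the median over 9034 tested genes with more than 3 counts in every library was 3.58. *Eno1*, the ubiquitous enolase, measured 238, 165, 263 and 103 CPM (192 ± 72.9), and *Pkm*, the pyruvate kinase of most tissues other than liver, 205, 135, 295 and 194 CPM (207 ± 65.9). *Gapdh* measured 59.4, 75.7, 126 and 80.8 CPM (85.5 ± 28.6). The neuronal enolase *Eno2* was the 1 gene that failed the filter, with 2, 2, 0 and 0 counts, and *Eno1* held 99.97% of the TPM of the pair. Counts of *Gapdh* are uncertain, since its transcript matched 45 other places in the mouse genome (GRCm39) over at least 500 bases at 95% identity or more. Such copies were also found for *Pgk1* (4), *Eno1* (3), *Pgam1* (2), *Bnip3* (2), *Egln1* (2), *Gpi1* (1), *Tpi1* (1), *Pkm* (1) and *Ldhb* (1), and for none of the other 22 genes. Of the annotated near copies, *Eno1b* had 2, 6, 10 and 6 counts, *Aldoart1* 0, 0, 1 and 0, and *Aldoart2* 0 throughout. *Gapdhs*, listed as another glycolysis isoform and not as a near copy, had 34, 1, 34 and 14 counts.

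Of the lactate dehydrogenase subunits, A prevailed over B in every library. *Ldha* (chr7:46845804-46855627), which favours the conversion of pyruvate to lactate, measured 461, 804, 385 and 494 CPM (536 ± 185), or 781 ± 347 TPM, at the 98.5th percentile of the genes tested. *Ldhb* (chr6:142490249-142507957), the heart-type subunit, measured 21.9, 7.09, 41.7 and 12.0 CPM (20.7 ± 15.3). The subunits moved in opposite directions between libraries, with *Ldha* highest and *Ldhb* lowest in replicate 2 and the reverse in replicate 3. *Ldha* nevertheless held 93.4%, 98.7%, 86.2% and 96.5% of their TPM. Of the lactate carriers, *Slc16a1* (MCT1) measured 59.0, 57.1, 45.8 and 68.5 CPM (57.6 ± 9.33), and *Slc16a3* (MCT4), the carrier known for lactate export from glycolytic cells, 2.22, 0.670, 6.25 and 7.78 CPM (4.23 ± 3.34). *Slc16a1* therefore stood above *Slc16a3* in each library, with 89.2% ± 8.13 of their TPM. For *Aldoa*, *Eno1*, *Ldha*, *Slc16a1* and the prolyl hydroxylase *Egln1*, 5 of the 9 families with 2 isoforms, the same isoform was higher in all 4 libraries. The exact permutation test gave p = 0.125 for each (0.225 after Benjamini-Hochberg adjustment over the 9 families), the smallest p that 4 pairs allow, so no family could pass 0.05.

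**Figure D2:**
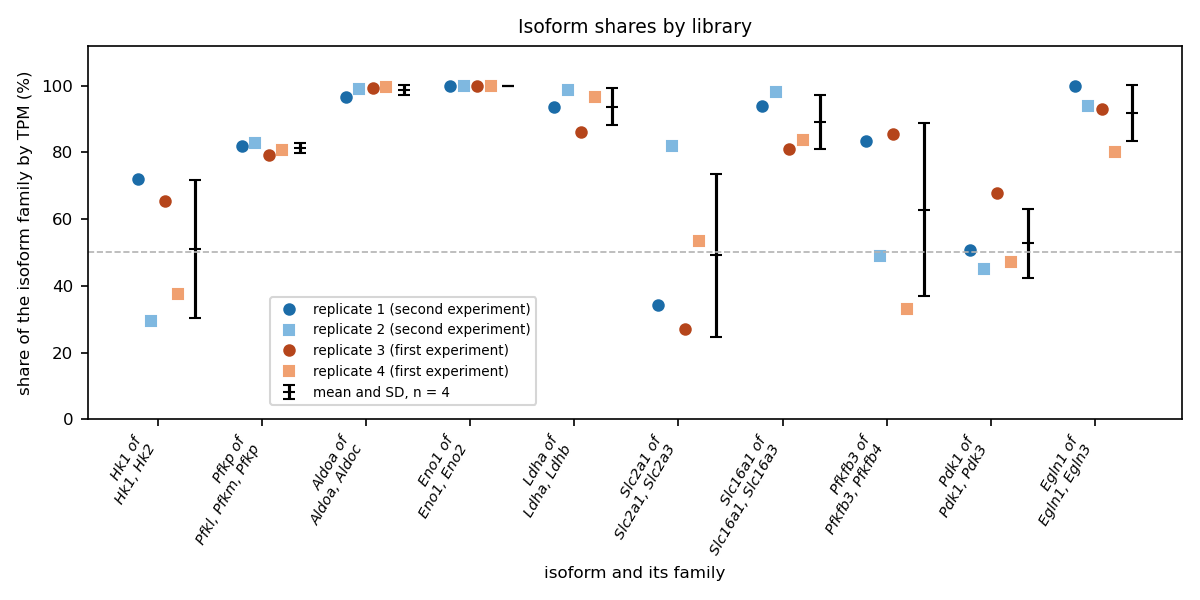
Share of the TPM of each isoform family held by the named isoform in each library (percent), with circles for replicates 1 and 3 and squares for replicates 2 and 4; the black bar gives the mean and SD over 4 libraries and the dashed line marks 50%. The shares of *Pfkp*, *Aldoa*, *Eno1*, *Ldha*, *Slc16a1* and *Egln1* stay above 79% in every library, while those of *Hk1*, *Slc2a1*, *Pfkfb3* and *Pdk1* cross the line.

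Flux regulators were expressed at lower levels. *Pfkfb3* and *Pfkfb4* encode bifunctional enzymes that set fructose 2,6-bisphosphate, an activator of phosphofructokinase. *Pfkfb3* measured 32.7, 29.6, 26.1 and 20.6 CPM (27.2 ± 5.20), whereas *Pfkfb4* (chr9:108991902-109032225) measured 4.30, 20.4, 2.90 and 27.3 CPM (13.7 ± 12.1). *Pfkfb3* changed little with TMM scaling and *Pfkfb4* was low in replicates 1 and 3. The *Pfkfb3* share of the pair by TPM was 83.4%, 48.9%, 85.6% and 33.2% (exact permutation p = 0.5). The kinases *Pdk1* and *Pdk3*, which inhibit pyruvate dehydrogenase and so limit the oxidation of pyruvate in mitochondria, measured 46.7, 30.8, 58.3 and 24.6 CPM (40.1 ± 15.3) and 16.8, 14.0, 10.3 and 10.3 CPM (12.8 ± 3.15). *Pdk1* held 52.7% ± 10.4 of their TPM but 74.5% of their counts, which are not divided by gene length (5529 bases for *Pdk1* and 2055 for *Pdk3*).

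The HIF group ranged from abundant genes to genes with few counts. *Hif1a* (chr12:73901324-73947554) measured 301, 166, 446 and 80.8 CPM (248 ± 160), highest in replicate 3 and lowest in replicate 4 of the same experiment. *Egln1* (chr8:124908587-124949254), the main oxygen sensor that hydroxylates HIF1α, measured 125, 47.1, 85.7 and 42.7 CPM (75.0 ± 38.3). With TMM scaling, *Hif1a* and *Egln1* were both higher in replicates 1 and 3 than in replicates 2 and 4. Scaled to T cell markers, *Egln1* turned in both experiments, and *Hif1a* turned in the second (log2 difference of -0.94 for replicate 4 minus 3 and 0.75 for replicate 2 minus 1). *Egln3*, a hydroxylase that is itself induced by HIF, had 0, 24, 22 and 32 counts and was not detected in replicate 1. *Vegfa* (chr17:46016993-46032377), an angiogenic growth factor and a classical HIF target, had 5, 394, 6 and 184 counts, or 0.693, 37.7, 1.34 and 46.2 CPM (21.5 ± 23.9). Its 66.6-fold range was the widest of the 30 genes. *Bnip3* (chr7:138890836-138909506), a target that promotes removal of mitochondria, measured 1.39, 3.54, 1.79 and 11.5 CPM (4.56 ± 4.75). *P4ha1*, a collagen prolyl hydroxylase, measured 8.45, 37.7, 55.8 and 37.4 CPM (34.8 ± 19.6), with replicate 1 below the others. *Mxi1*, a repressor related to the MYC network, measured 35.5, 24.2, 95.5 and 30.1 CPM (46.3 ± 33.1), with replicate 3 above the others. *Vegfa* and *Bnip3*, unlike *Hif1a*, were highest in replicate 4, and the targets of the group thus did not share a common order of libraries.

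Differences between libraries of the same experiment were then compared, which keeps the experiment constant. Within each experiment the library with more epithelial RNA was set against the other (replicate 4 minus 3 and replicate 2 minus 1, on log2 CPM with a prior count of 2). *Vegfa* differed by 4.82 and 5.25, *Pfkfb4* by 3.11 and 2.17 and *Bnip3* by 2.50 and 1.19. These 3 of 31 genes were higher by more than 1 log2 unit in both experiments, as were 19.0% of all genes tested, although *Vegfa* and *Bnip3* had fewer than 10 counts in replicate 3. *Hk1* differed by -1.98 and -1.60, *Ldhb* by -1.77 and -1.59, *Aldoc* by -1.39 and -2.20 and *Egln1* by -1.002 and -1.40. These 4 genes were lower by more than 1 unit in both, as were 8.08% of all genes, and *Egln1* passed the limit only narrowly and lost it under both other library scalings. By sign alone, 7 genes were higher in both experiments, 16 lower in both and 8 opposite, compared with 35.2% of all genes higher and 29.9% lower in both. The median difference of the 31 genes was -0.34 and -0.47, and that of all genes 0.08 and 0.13, so the set lay 0.42 and 0.60 log2 units below.

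The same pairs of libraries differed in their cell markers. Epithelial markers were at 3.07% against 0.0188% in the first experiment and at 1.24% against 0.0972% in the second, and T cell markers at 0.190% against 0.434% and at 0.146% against 0.371%. The part of these RNAs in the differences was not tested. With the counts scaled to the T cell markers instead, the median of all genes shifted to 1.56 and 1.70 and that of the set to 1.17 and 1.13. Under this scaling 14 genes were higher (48.8% of all genes) and 0 lower (0.941%), and the sign of *Egln1* turned, to 0.51 and 0.20. *Hk1* then differed by -0.47 and -0.01, *Ldhb* by -0.27 and -0.02 and *Aldoc* by -0.07 and -0.68. *Vegfa* (6.10 and 6.70), *Pfkfb4* (4.50 and 3.73) and *Bnip3* (3.82 and 2.63) remained above 1 in both, as they did with library size alone and with median-of-ratios factors. With 1 library against 1 in each experiment, these differences have no test.

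**Figure D3:**
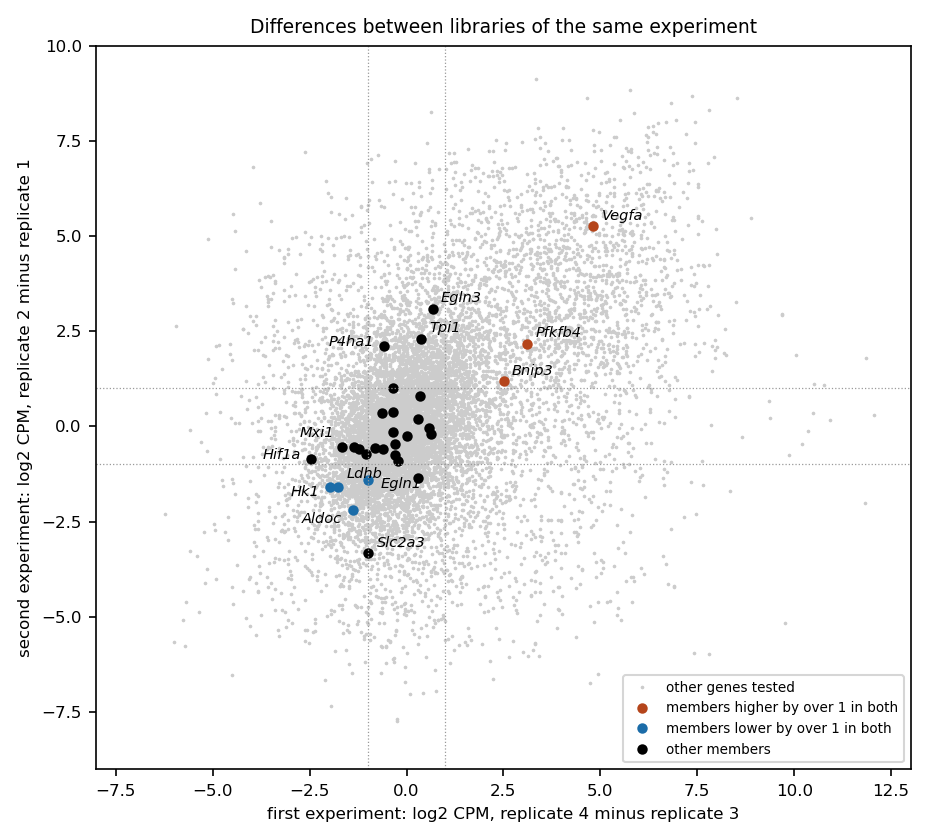
Log2 CPM difference between the 2 libraries of the first experiment (replicate 4 minus 3, horizontal) and of the second (replicate 2 minus 1, vertical) for the 31 genes and, in grey, the other genes tested; dotted lines mark 1 log2 unit. *Vegfa*, *Pfkfb4* and *Bnip3* (red) lie beyond 1 in both, as do 19.0% of all genes, and *Hk1*, *Ldhb*, *Aldoc* and *Egln1* (blue) lie below -1 in both, as do 8.08%; scaled to T cell markers, the sign of *Egln1* turns and no blue gene lies below -1 in both.

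The other genes of the same pathways were examined as a list of 74, of which 58 passed the filter. Of these 58, 14 were higher by more than 1 log2 unit in both experiments, in the library with more epithelial RNA, as were 19.0% of all genes, among them *Fbp1*, *Fbp2*, *Pck1*, *Pck2*, *Pcx*, *Khk*, *Hkdc1*, *Eno3*, *Pklr*, *Mpc2*, *Pdk4*, *Ndrg1* and *Car9*. *Fbp2*, a fructose bisphosphatase, had 5, 1155, 1 and 102 counts, and *Khk*, the fructokinase, 23, 213, 51 and 281. Both were thus highest in the libraries with more epithelial RNA. *Slc5a1*, the sodium-glucose carrier of the enterocyte brush border, had 138, 376, 84 and 418 counts, the fructose carrier *Slc2a5* 0, 83, 0 and 6, the glucose carrier *Slc2a2* 6, 0, 0 and 26, and *G6pc*, the glucose 6-phosphatase, 0 in every library. *Pck1*, a key enzyme of gluconeogenesis, had 0, 20, 12 and 113 counts, *Fbp1* 0, 51, 9 and 46, *Pck2* 40, 360, 15 and 141, and *Pcx*, the pyruvate carboxylase, 0, 76, 1 and 10. Another 5 of the 58 were lower by more than 1 log2 unit in both experiments, as were 8.08% of all genes: *Gapdhs*, *Slc2a8*, *Rpe*, *Epas1* and *Bhlhe40*.

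Some isoforms outside the set were as abundant as those within it. *Pdk2*, a further pyruvate dehydrogenase kinase, reached 31.2 ± 20.8 TPM, compared with 19.9 ± 7.13 for *Pdk1* and 17.5 ± 6.17 for *Pdk3*, and was lowest in replicate 3 at 5.69 TPM. *Egln2* reached 31.4 ± 15.04 TPM, below *Egln1* at 59.3 ± 33.6 and above *Egln3* at 3.65 ± 3.13. *Pfkfb2*, at 13.9 ± 6.04 TPM, was level with *Pfkfb3* at 14.4 ± 4.21 within their spread. The muscle enolase *Eno3* measured 4.93, 14.5, 2.40 and 32.5 TPM, above *Eno2* in each library.

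**Figure D4:**
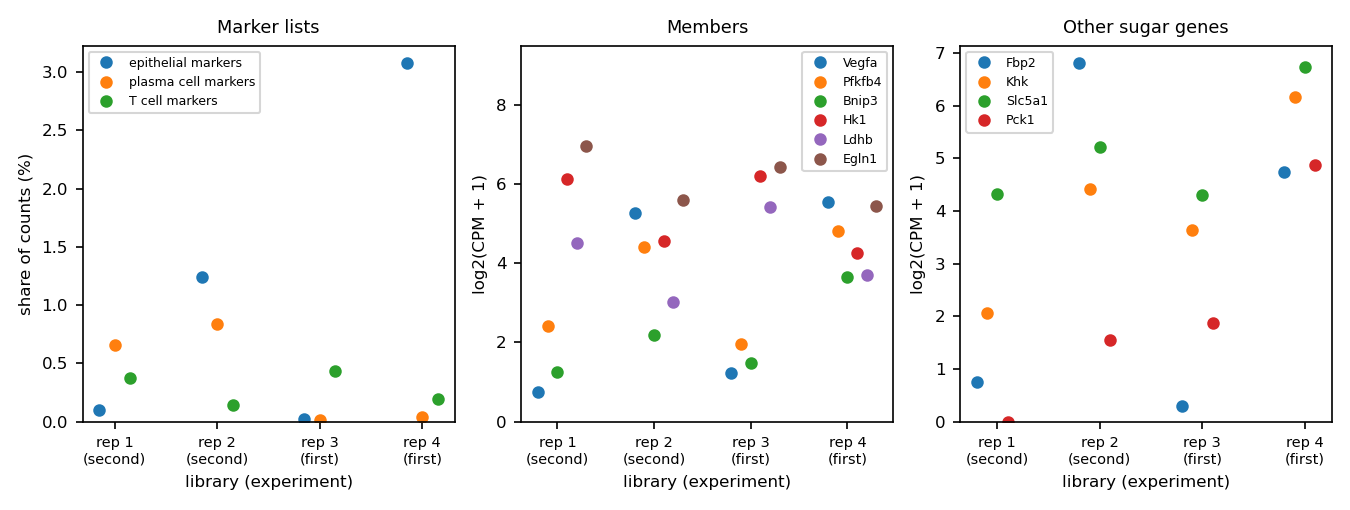
Summed share of counts (percent) of epithelial, plasma cell and T cell markers in each library (left), and log2(CPM + 1) of 6 genes of the set (middle) and of 4 other genes of sugar metabolism (right). *Vegfa*, *Pfkfb4*, *Bnip3* and *Fbp2* are higher in replicates 2 and 4, where epithelial markers reach 1.24% and 3.07%. *Hk1*, *Ldhb* and *Egln1* are lower there at this scaling. Scaled to T cell markers, *Egln1* is higher there. *Hk1* then differs by -0.47 and -0.01 log2 units in the first and second experiments, and *Ldhb* by -0.27 and -0.02.

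Because all libraries belong to one condition, the comparison of the 2 experiments measures how well levels repeat and not an effect. With edgeR's quasi-likelihood test, 0 of the 31 genes differed between the second and first experiments at an adjusted p under 0.05, as did 0% of the 11689 genes tested, and at an unadjusted p under 0.05 the counts were 0 of 31 and 248 of 11689. DESeq2 called 0 of the 29 genes to which it gave an adjusted p, compared with 0.397% of 10329 genes. The biological coefficient of variation, which is edgeR's estimate of the relative spread between libraries, was 0.976 over all genes tested. With so wide a spread and 2 libraries in each experiment, 0 calls do not show that the levels repeat. *Gpi1*, the gene with the lowest unadjusted p by edgeR, had a log2 fold change of -0.94 ± 0.55 (SE) and an adjusted p of 1.0 by edgeR. Each SE given with an edgeR estimate was back-calculated from the F statistic of the test. The median log2 fold change of the set was -0.23, against 0.03 for all genes, and its median size regardless of sign was 0.53, against 0.67.

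The 3 genes *Slc2a1*, *Pfkfb3* and *Pdk3* were higher in both libraries of the second experiment than in both of the first, as were 14.7% of all genes. The 5 genes *Gpi1*, *Pfkl*, *Gapdh*, *Slc16a3* and *Egln3* were lower in both, as were 14.4% of all genes. Neither count is far from its background. *Pdk3*, for example, measured 16.8 and 14.0 CPM in the second experiment and 10.3 in each library of the first, a difference that edgeR put at 0.58 ± 1.22 (log2, SE). *Slc16a3* and *Egln3* had the widest standard errors of this group, at 1.90 and 2.42 log2 units. Plasma cell markers also differed between the experiments (0.655% and 0.839% against 0.0114% and 0.0387%), and their part in these values was not tested. Among the 58 other pathway genes, edgeR and DESeq2 each called 0, and 2 had an unadjusted p under 0.05 by edgeR.

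**Figure D5:**
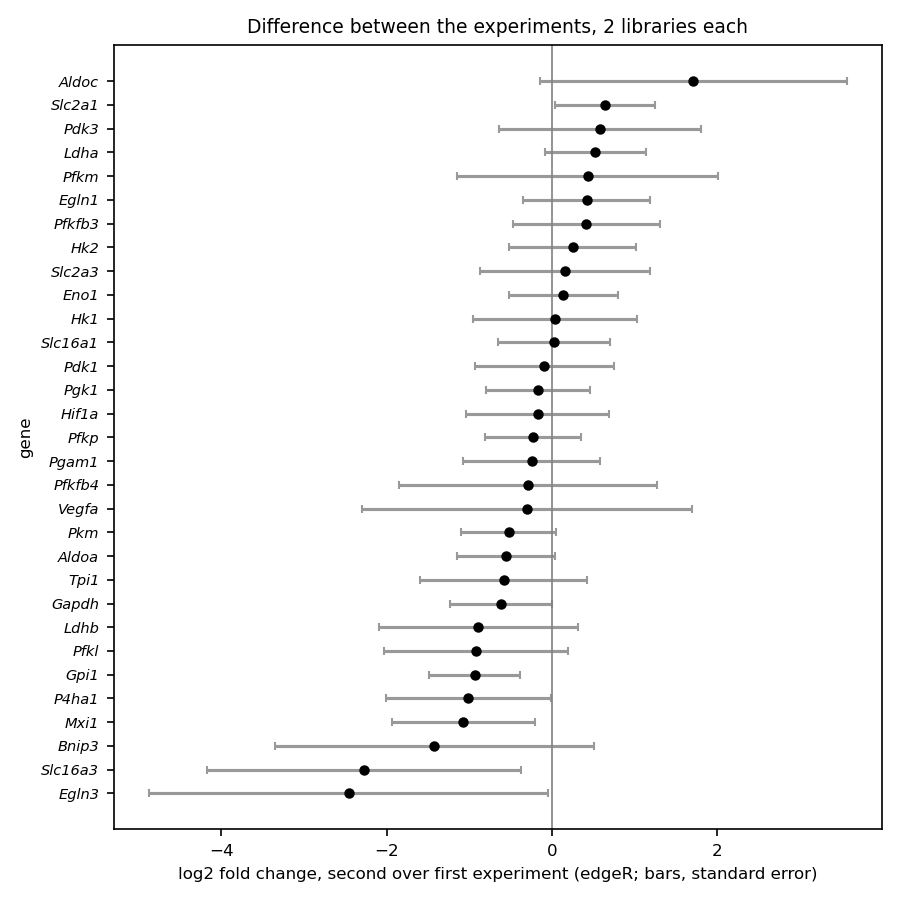
Log2 fold change of the second over the first experiment for the 31 genes tested with edgeR, ordered by size, with 2 libraries in each experiment. Points give the estimate and bars the standard error, back-calculated from the F statistic. The estimates run from -2.46 for *Egln3* to 1.71 for *Aldoc*, both dependent on 1 library (-8.10 for *Egln3* without replicate 2 and 0.17 for *Aldoc* without replicate 1), and none passes the adjusted threshold.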

How the data were processed

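The 4 libraries of SI-LP NKT cells came 2 from each of 2 experiments; each group and replicate number was taken from the sample titles. The members and gene lists were chosen with earlier results of these data known. The authors deposited raw counts per gene, made from paired reads with featureCounts 1.6.4 (primary alignments, exons of a RefSeq annotation, no strand option per the file headers). The methods name HISAT2, GRCm39 and a NovaSeq, whereas the labels name GRCm38.p6 and a HiSeq, and the deposited gene positions, given here, are those of GRCm38. The submitters' processing notes also list RSEM, Bowtie2 and DESeq, with no role stated. The table held 6 library columns, of which 2 without a matching sample label were not used. The gene lengths deposited by the authors, an other value and not a measurement, were used for TPM.

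CPM was computed from the counts with TMM factors. The 11689 of 25239 genes that reached 10 counts in 2 or more libraries were tested between experiments with edgeR 4.0.16 (quasi-likelihood test, Benjamini-Hochberg adjustment over all genes, threshold 0.05). Standard errors of edgeR estimates were taken as the absolute log2 fold change divided by the square root of the F statistic. DESeq2 1.42.0 was an alternative. Within-experiment differences used log2 CPM with a prior count of 2 and no test. Isoform shares used TPM, with exact sign-flip permutation tests of log2(TPM + 1). All 32 members are named; of a list of 74 other pathway genes, those of gluconeogenesis and fructose use, *Slc2a2*, *Slc2a5*, *Slc5a1*, isoforms with a mean TPM above that of a member of their family, and near copies; genes beyond this rule that differed within both experiments were named after their values were seen. Some genes of these lists are not reported here. Near-identical genome copies were sought with minimap2 2.31 on GRCm39, exon overlaps with bedtools 2.31.1, and promoters come from RefSeq (GRCm38.p6), in which 31 members were matched and *Slc2a3* was not. The edgeR script was tested on simulated data. Other tools were R 4.3.3, limma 3.58.1, Python 3.11.15, numpy 2.4.6, pandas 2.3.3, scipy 1.17.1 and matplotlib 3.10.9.

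The depth was 3882803 to 8732858 counts a library, so that 3 counts equal 0.287 to 0.753 CPM. The alternatives were library size alone, DESeq2, median-of-ratios factors, scaling to T cell marker counts, other filters, a prior count of 0.5, counts without length correction, shares without *Rn45s* or the 10 most abundant genes, leaving out each replicate and, chosen after seeing the data, replicates 1 and 3 alone.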

Additional observations from a re-analysis of the deposited data

Results flagged for a closer look

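The level of *Mxi1* in 1 library stood far from the others: replicate 3 measured 95.5 CPM and the other libraries 35.5, 24.2 and 30.1 CPM, so that the gap to the next library was 0.842 of the whole range. It was the 1 gene or share to stand out in this way among 43 sets of 4 libraries examined, where about 1 in 20 sets, or 2.15 of 43, would be expected by chance. *Mxi1* did not differ between the experiments by edgeR (log2 fold change of the second over the first -1.07 ± 0.86 SE, adjusted p = 1.0).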

How the results depend on the processing

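No member was called between the experiments under DESeq2, median-of-ratios factors, library size alone, either other filter, or with any replicate left out, and the median log2 fold change of the members stayed between -0.39 and 0.0055, the latter under library size alone. Over all genes, edgeR called 0 of 11689 with the filter and 60 of 16223 without it, and DESeq2 called 41 of 10329. For genes above or below 1 log2 unit in both experiments, scaling to T cell marker counts gave 14 higher and 0 lower members in place of 3 and 4, with the median of all genes shifted by more than 1 unit, and a filter of 10 counts in all 4 libraries left 1 higher member (8.91% of all genes), *Pfkfb4*, since *Vegfa* and *Bnip3* failed this filter. The mean share of counts on members rose to 0.329% without *Rn45s* and to 0.354% without the 10 most abundant genes, and the *Pdk1* share was 74.5% by counts without length correction. The number of members in the top 10% stayed between 4 and 8 (6 as reported), and the other shares and medians and all 192 alternative mean CPM values of members moved by less than the spread between replicates.

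Signs of uncalled fold changes between experiments (log2, second over first) were not stable. Under library size alone *Pfkp* (0.0055), *Pgk1* (0.12), *Pdk1* (0.20) and *Hif1a* (0.16) turned positive, and with the filter on all 4 libraries *Slc16a1* turned to -0.016. With 1 replicate left out, values ran from -2.28 to 1.02 for *Slc2a3*, -0.95 to 1.33 for *Hk1*, -0.35 to 0.70 for *Hk2*, -0.011 to 1.06 for *Pfkm*, -0.62 to 0.087 for *Pfkp*, -2.20 to 0.18 for *Tpi1*, -0.38 to 0.036 for *Pgk1*, -0.38 to 0.96 for *Eno1* and -1.88 to 0.25 for *Ldhb*. They ran from -0.25 to 0.35 for *Slc16a1*, -1.86 to 2.11 for *Pfkfb4*, -0.58 to 0.64 for *Pdk1*, -0.93 to 1.51 for *Hif1a*, -0.41 to 0.99 for *Egln1*, -2.29 to 0.49 for *Bnip3* and -1.28 to 0.68 for *Vegfa*. Without replicate 2 or 4, *Vegfa* failed the filter on low counts and was not tested. *Aldoc* kept its sign (0.17 to 2.70), with the lowest value without replicate 1, and so did *Egln3* (-8.10 to -1.46), whose value of -8.10 without replicate 2 is set against 0 counts and is no bound. A lone library left in an experiment was assumed to vary like the others. The cause of these changes was not tested. No paired analysis was possible because each replicate number occurs once. At this depth *Eno2* and *Egln3* had 3 counts or fewer in at least 1 library, and their levels there were not detectable.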
